A study of Mus musculus with 6 samples.

Results

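The MYC and MAX network is a set of transcription factors that share the dimerisation partner MAX. It was examined in pro-B cells sorted from mice, which are early precursors of B lymphocytes, on 3 arrays labelled HDAC7 deficient and 3 wild-type arrays. The genes were taken from a list of 7 names (Myc, Mycn, Max, Mxd1, Mxd4, Mxi1 and Mnt). A probe set counted when the platform annotation gave it exactly 1 symbol and that symbol was on the list. Of the 7 genes, 6 had such a probe set, 15 probe sets in all out of 45037, and these genes were 6 of the 17097 genes represented on the array. Max had no probe set under its own symbol alone and has no value here. The main value of a gene is that of its brightest probe set by mean value, and its other probe sets are given beside it.

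The HDAC7-deficient cells came from mice that the series describes as conditional for HDAC7, which is a histone deacetylase of class IIa. The study was directed at the part of HDAC7 in B lymphocyte identity. The other cells came from mice labelled wild type. The labels give no age, tissue, Cre driver, floxed allele or deleted exon, so it is not known whether the groups share a transgene. Cells of both groups were sorted as B220+CD43+IgM- on a flow cytometer, and 25 ng of RNA from each sample was amplified before labelling. The array value of Hdac7 itself, on the brighter of its 2 probe sets, did not drop with the label, at 9.59 ± 0.34 in HDAC7 deficient and 8.62 ± 1.15 in wild type (log2 means ± SD, n = 3 each). Its change was 0.97, or 0.31 without wild-type replicate 3, an array described below. Whether its probes lie in the deleted part is not known here. All values below are log2 expression values as deposited, and every change is the mean of the arrays labelled HDAC7 deficient minus that of wild type.

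MYC and its relative MYCN are basic helix-loop-helix leucine zipper proteins that bind DNA as dimers with MAX, mainly at the E-box CACGTG, and recruit histone acetyltransferases. MXD1, MXD4, MXI1 and MNT compete for MAX at the same sites and recruit SIN3 corepressor complexes with histone deacetylases. In B cell precursors MYC and MYCN support growth and division in response to interleukin 7, and MXD proteins are known for their rise as cells leave the cell cycle.

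Promoters of the members were searched for the E-box, and the stretches that hold one are shown. A window of 250 bases before to 50 bases after each start site was searched for CACGTG, which reads the same on both strands, in RefSeq promoters of build GRCm38.p6. Of the members, 6 had promoter entries, and 3 of these held the motif (50%), beside 8.09% of 27025 genes, with no test of the difference. Myc had no promoter entry. The letters do not show binding. The 40 bases around each match follow, 5′ to 3′, with the motif in capitals. The match began at position -3 from the start site in Max, -219 in Mxd4 and -123 in Mnt.
Max, chr12:76962229-76962268, minus strand: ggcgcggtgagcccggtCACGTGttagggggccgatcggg
Mxd4, chr5:34187907-34187946, minus strand: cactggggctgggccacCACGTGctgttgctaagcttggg
Mnt, chr11:74830784-74830823, plus strand: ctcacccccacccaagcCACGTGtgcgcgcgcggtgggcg
The windows of Mycn, Mxd1 and Mxi1 did not hold these letters.

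One wild-type array, replicate 3, was unlike the rest and enters every value below. Over all probe sets it correlated with the other arrays at 0.70 to 0.82. Its values were narrower in spread, with an interquartile range of 1.72, while the other arrays had 2.27 to 2.93. In the 4275 genes with the highest means it lay below the mean of the other wild-type arrays by a median difference of -1.37. The arrays were also divided by Xist, the RNA of the inactive X chromosome, which the labels do not explain. It read 11.40 and 11.27 on HDAC7-deficient replicates 2 and 3 and 8.51 on wild-type replicate 3 (Xist-high), and 4.87 on HDAC7-deficient replicate 1 and 5.38 and 5.17 on wild-type replicates 1 and 2 (Xist-low). The hybridisation spike-in controls were divided the same way, with means of 9.99 and 10.78 on HDAC7-deficient replicates 2 and 3 and 10.23 on wild-type replicate 3, and of 8.64 on HDAC7-deficient replicate 1 and 9.17 and 8.92 on wild-type replicates 1 and 2. The Y-linked gene Eif2s3y ran opposite to Xist. It read 9.49 on HDAC7-deficient replicate 1 and 7.77 and 8.31 on wild-type replicates 1 and 2. On HDAC7-deficient replicates 2 and 3 it read 4.41 and 4.72, and on wild-type replicate 3 it read 4.08. Kdm5d and Uty, also Y-linked, were likewise higher on every Xist-low array than on every Xist-high array. The division thus follows sex-linked genes, and the part of sex in the values below was not tested. Changes are therefore also given without wild-type replicate 3 and within each division, where the Xist-high wild-type side is that array alone. Without that array the wild-type arrays left were all Xist-low, while HDAC7-deficient replicates 2 and 3 were Xist-high. In that setting label and division cannot be fully told apart.

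Markers of pro-B cells were bright on every array, among them the surrogate light chain gene Vpreb1 at 10.73 to 11.48 in HDAC7 deficient and 9.97 to 11.53 in wild type, and the commitment factor Ebf1 at 10.15 to 10.47 and 10.34 to 10.48. Some markers of other cells were bright too, while the markers Cd14, Cd3e, Klf1 and Epor lay below the median gene by mean value. The myeloid granule gene Mpo lay at 11.58 to 11.77 in HDAC7 deficient and 9.92 to 11.98 in wild type, and the calprotectin gene S100a8 at 10.83 to 11.33 and 10.79 to 11.82. The mean of the 8 myeloid markers was 9.27 to 9.73 against 8.90 to 9.45 in wild type. The 5 natural killer cell markers gave 8.92 to 9.27 against 7.30 to 9.22, and the 5 T cell markers that were measured, of 6, gave 7.69 to 8.42 against 6.81 to 7.95. The 3 measured plasmacytoid dendritic cell markers, of 5, gave 9.68 to 10.49 against 7.18 to 9.73, and the 3 measured erythroid markers, of 5, gave 6.17 to 7.66 against 6.84 to 7.16. The measured pro-B markers, 11 of 14, gave 9.36 to 10.15 against 8.52 to 9.91. Groups overlapped for each of these means. The makeup of the sorted cells was not measured. In RNA of a sorted population, fewer cells of a type and less RNA per cell cannot be told apart. The part of other cells in the values below was not tested.

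No gene of 17097, or 0%, passed a limma adjusted p of 0.05 with 6 arrays, so no member was called. The smallest adjusted p of any gene was 0.326. At an unadjusted p under 0.05, 3.52% of genes lay higher and 9.14% lower in HDAC7 deficient, and none of the 6 members was among them. Groups did not overlap for 1 of the 6 members, Mxd1, on the higher side. That pattern was seen in 9.45% of all genes and in 16.98% of the 4275 brightest, which include Mxd1. No member was separated on the lower side, where 16.8% of all genes were. The 6 members had a median change of 0.06, against -0.03 over all genes and 0.56 over the 4275 brightest. All 6 members lay between percentiles 67.6 and 85.5 of mean value.

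**Figure D1:**
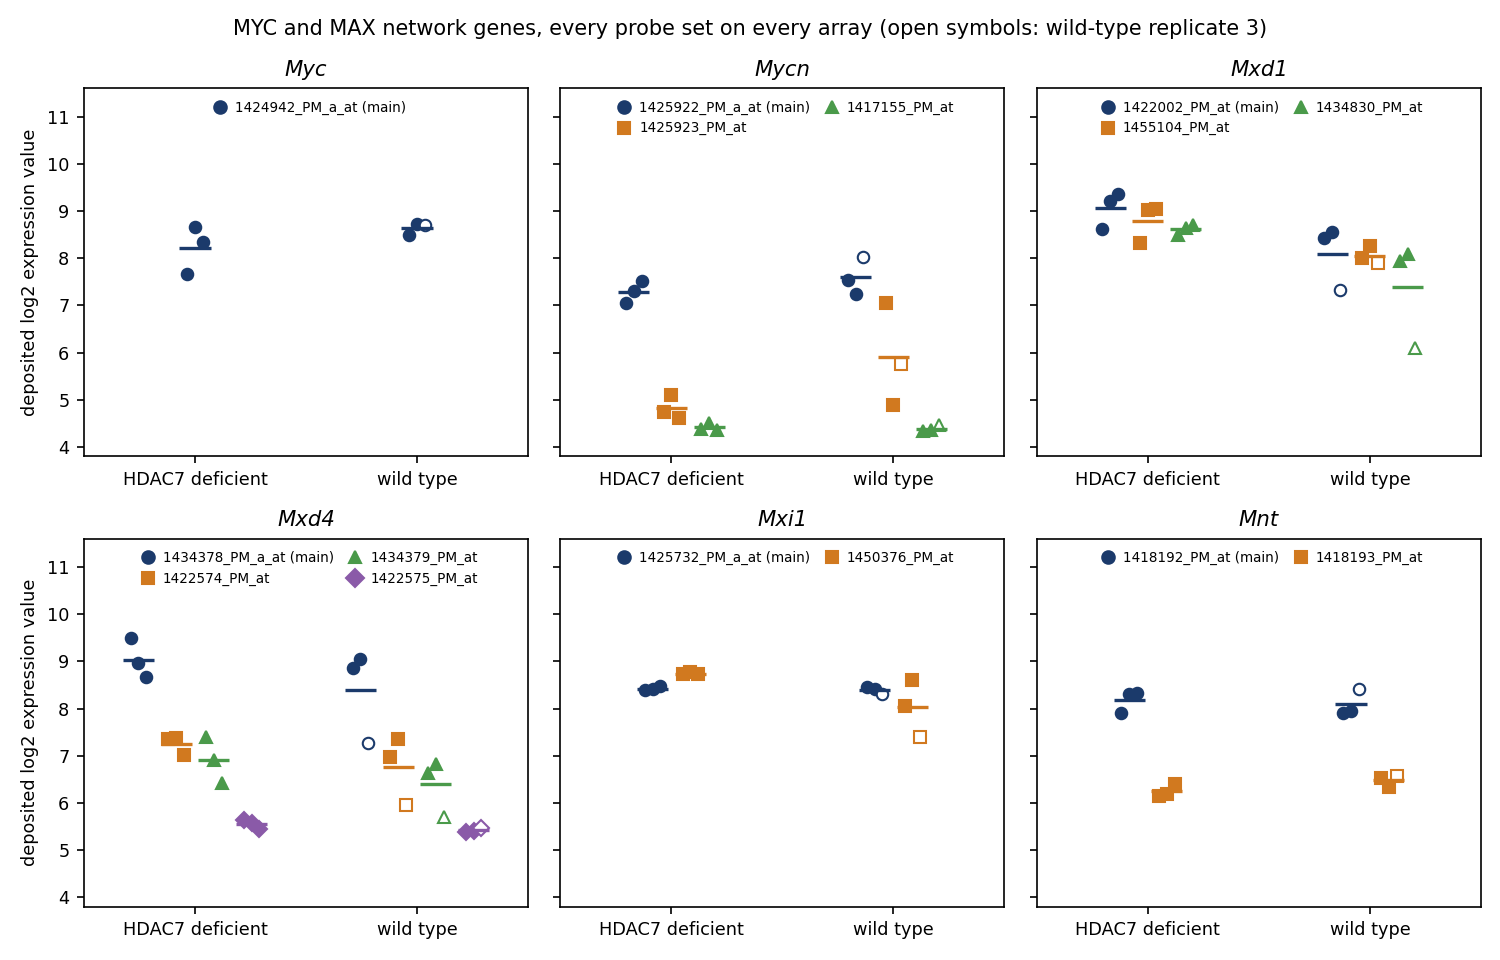
Deposited log2 expression value (vertical axis) of every probe set of the 6 measured members on the 3 HDAC7-deficient and the 3 wild-type arrays. Each point is an array, each short line a group mean, and open symbols mark wild-type replicate 3. The Mxd1 groups do not overlap in any of its 3 probe sets, while Myc, Mnt and the main probe sets of Mycn, Mxd4 and Mxi1 overlap.

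The activating members lay lower on the arrays labelled HDAC7 deficient without passing the test. Myc, the main driver of growth and ribosome production in dividing lymphoid cells, read 7.67, 8.65 and 8.34 on HDAC7-deficient replicates 1 to 3, against 8.49, 8.73 and 8.70 on wild-type replicates 1 to 3. HDAC7-deficient replicate 1 was the lowest of the 6 arrays, and replicate 2 fell within the wild-type range. The change was -0.42 ± 0.34 (standard error), with a limma adjusted p of 0.463. After quantile normalization it was -0.89 (limma adjusted p = 0.459). On the deposited scale it was -0.39 without wild-type replicate 3, and that array gave Myc 0.09 above the mean of the other wild-type arrays. Within the Xist-low arrays it was -0.94 and within the Xist-high arrays -0.20. Without HDAC7-deficient replicate 1 it was -0.14.

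Mycn, which encodes N-MYC and can stand in for MYC in early lymphoid cells, gave 7.05, 7.31 and 7.51 in HDAC7 deficient and 7.53, 7.23 and 8.03 in wild type on its brightest probe set (1425922_PM_a_at). Groups overlapped, and wild-type replicate 3 was the highest array. The change was -0.31 ± 0.31, with a limma adjusted p of 0.514. It was -0.09 without wild-type replicate 3 and -0.79 after quantile normalization. A dimmer probe set (1425923_PM_at) read 4.74, 5.10 and 4.61 against 7.05, 4.89 and 5.77, where wild-type replicate 1 was far above the others. Its change was -1.09, with a limma adjusted p over probe sets of 0.357. The dimmest (1417155_PM_at) stayed between 4.35 and 4.51 on all 6 arrays and differed by 0.03.

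On the deposited scale with all arrays, Mxd1 had the largest change of the 6 members, while after quantile normalization it had 0.56 and Myc and Mycn had larger changes in the other direction. MXD1 is a MAX partner that recruits SIN3 and is abundant in differentiating myeloid cells. Its brightest probe set (1422002_PM_at) read 8.62, 9.20 and 9.37 on HDAC7-deficient arrays and 8.42, 8.56 and 7.32 on wild-type arrays. Every HDAC7-deficient array was above every wild-type array, and the narrowest gap, between HDAC7-deficient replicate 1 and wild-type replicate 2, was small beside the spread in either group. The change was 0.97 ± 0.43, with a limma adjusted p of 0.377.

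Both remaining Mxd1 probe sets had the same order. The first (1455104_PM_at) gave 8.32, 9.01 and 9.05 against 8.01, 8.25 and 7.89 in wild type, a change of 0.74. The second (1434830_PM_at) gave 8.49, 8.63 and 8.70 against 7.95, 8.09 and 6.10, a change of 1.23. Groups were apart in all 3 probe sets, which read the same RNA and are not independent. Over the network, 4 of the 15 probe sets were apart on the higher side, the fourth being of Mxi1, against 11.5% of all probe sets. Limma adjusted p-values over probe sets were 0.354 and 0.355.

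Without wild-type replicate 3 the Mxd1 changes were 0.58, 0.66 and 0.59 in the 3 probe sets, a narrower range than with it, with limma adjusted p-values over probe sets of 0.336, 0.312 and 0.246. Groups were still apart in each, and 6 of the 15 network probe sets were apart on the higher side, against 16.2% of all. By main probe set, Mxd1 was the 1 member apart in that setting, against 11.8% of genes higher, and no member was lower, against 19.0% of genes. Within the Xist-low arrays the change of the brightest probe set was 0.13, and within the Xist-high arrays it was 1.97. That difference of 1.84 had a limma interaction adjusted p of 0.00184, a level that 27.3% of all genes passed, but it rests on arms of 1 array each, wild-type replicate 3 on the Xist-high side and HDAC7-deficient replicate 1 on the Xist-low side. The fit assumes that these lone arrays vary like the others, so the p is no support for a difference between the divisions. The mean of the myeloid markers was highest on the same HDAC7-deficient arrays that were highest for Mxd1, at 9.73 and 9.69, against 9.27 on HDAC7-deficient replicate 1 and 9.45, 9.29 and 8.90 on wild-type replicates 1 to 3. The T cell markers were likewise highest there, at 8.42 and 8.13, against 7.69 on HDAC7-deficient replicate 1 and at most 7.95 in wild type. The erythroid markers gave 7.66 and 7.59 there, against 6.17 on HDAC7-deficient replicate 1 and at most 7.16 in wild type. The plasmacytoid dendritic cell markers gave 10.49 and 10.38, against 9.68 on HDAC7-deficient replicate 1 and 9.26, 9.73 and 7.18 in wild type. The natural killer cell markers gave 9.27 and 8.92, against 9.06 on HDAC7-deficient replicate 1 and 8.98, 9.22 and 7.30 in wild type. The pro-B markers gave 9.42 and 9.36, against 10.15 on HDAC7-deficient replicate 1 and 9.67, 9.91 and 8.52 in wild type. Of the myeloid markers, Lyz2, Csf1r and Itgam were highest on HDAC7-deficient replicate 2. Mpo, Elane, S100a8, S100a9 and Cd14 were highest on a wild-type array. The spike-in controls were also brighter on HDAC7-deficient replicates 2 and 3 than on HDAC7-deficient replicate 1 and wild-type replicates 1 and 2. Wild-type replicate 3, the lowest array for Mxd1, had a spike-in mean of 10.23, above the 9.99 of HDAC7-deficient replicate 2. The part of all these in the Mxd1 difference was not tested.

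Mxd4 encodes another MXD protein. Its brightest probe set (1434378_PM_a_at) read 9.49, 8.96 and 8.67 in HDAC7 deficient and 8.85, 9.05 and 7.28 in wild type. The groups overlapped, with wild-type replicate 2 above HDAC7-deficient replicates 2 and 3. The change of 0.64 ± 0.53 had a limma adjusted p of 0.464, and without wild-type replicate 3 it was 0.09. Within the Xist-low arrays, which do not include wild-type replicate 3, it was 0.53, and on the Xist-high side 1.53. A fit that blocked on the division gave 1.03 (limma adjusted p = 0.0957). In that fit 7288 of 17097 genes had an unadjusted limma p under 0.05, so the value does not single out Mxd4. Its only Xist-high wild-type array was wild-type replicate 3. Probe sets 1422574_PM_at and 1434379_PM_at differed by 0.49 and 0.52, or 0.09 and 0.18 without that array. The dimmest (1422575_PM_at) differed by 0.14 with all arrays and by 0.16 without it.

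Mxi1, which encodes the MAX interactor MXI1, had probe sets that disagreed. The brighter by a small margin (1425732_PM_a_at, mean 8.41) read 8.39, 8.41 and 8.47 in HDAC7 deficient and 8.46, 8.41 and 8.30 in wild type. These were the tightest values among the main probe sets, and the change was 0.03 ± 0.26 and its limma adjusted p was 0.936. The second (1450376_PM_at, mean 8.38) read 8.73, 8.77 and 8.72 against 8.06, 8.61 and 7.40, with the groups apart. It differed by 0.72, with a limma adjusted p over probe sets of 0.361, or by 0.40 without wild-type replicate 3. The choice of the main probe set thus decides which value stands for Mxi1, and its direction also turned without that array, to -0.01.

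Mnt encodes the broadly expressed MAX partner that opposes MYC in resting and dividing cells alike. It read 7.91, 8.30 and 8.33 in HDAC7 deficient against 7.90, 7.95 and 8.42 in wild type on its brighter probe set (1418192_PM_at). The change was 0.09 ± 0.30, with a limma adjusted p of 0.844, and 0.25 without wild-type replicate 3, which was the highest array. The other probe set (1418193_PM_at) ran the other way, at 6.14, 6.20 and 6.39 against 6.54, 6.33 and 6.57, a change of -0.24. The sign for Mnt therefore depended on the probe set.

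**Figure D2:**
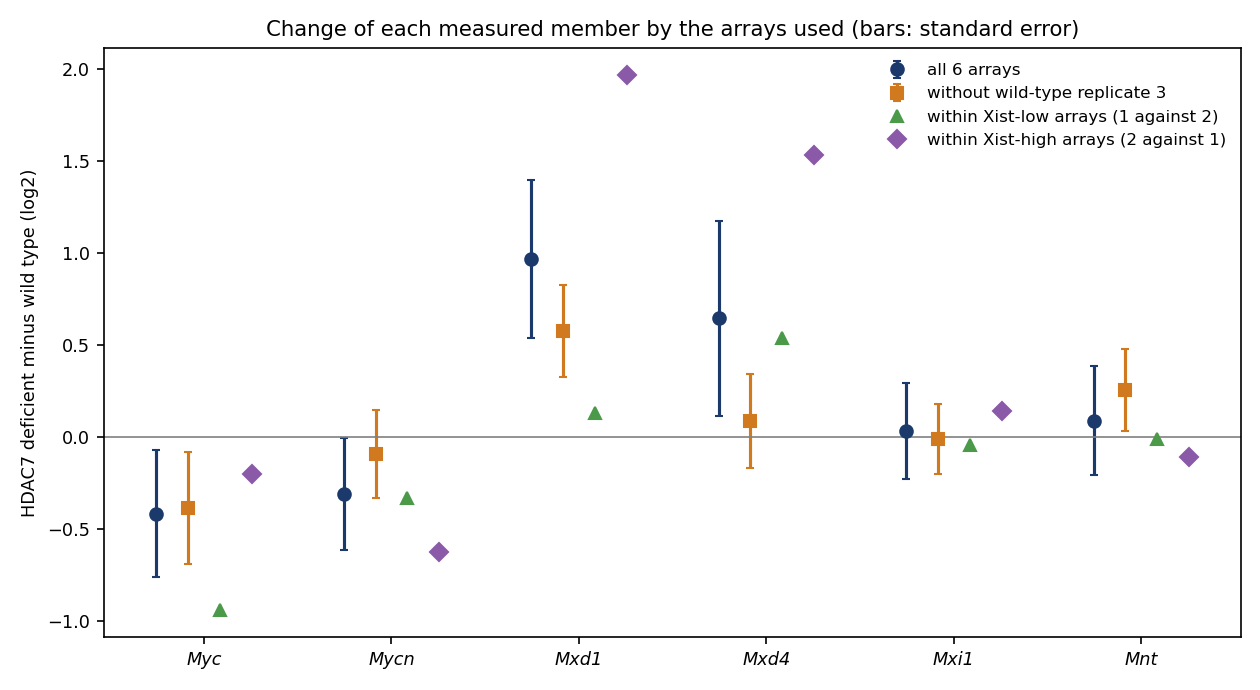
Change of each measured member (vertical axis, HDAC7 deficient minus wild type, log2) with all 6 arrays, without wild-type replicate 3, and within the Xist-low and Xist-high arrays. Bars are standard errors from limma, and the within-division points have none. Myc and Mycn lie below 0 and Mxd1 and Mxd4 above 0 at every setting drawn, while Mxi1 and Mnt cross it.

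On wild-type replicate 3 the members did not move together. Against the mean of the other wild-type arrays it read Mxd4 by -1.67 and Mxd1 by -1.17, near the -1.37 of the brightest genes, Mxi1 by -0.13, and Myc, Mnt and Mycn by 0.09, 0.50 and 0.65. HDAC7-deficient replicate 1 also differed from its group, by -0.83 for Myc, -0.67 for Mxd1, -0.40 for Mnt and -0.36 for Mycn, and by 0.67 for Mxd4. Across the 6 arrays Mycn and Mxd4 had a Pearson correlation of -0.97, and -0.94 over the 5 arrays other than wild-type replicate 3. Mxd1 and Mnt had -0.09 over 6 arrays and 0.98 over 5. These pairs were picked from 15 after their values were seen and are descriptions over few arrays that share that array and the Xist division. The genes most like Myc over the 6 arrays, among the 8548 other genes at or above the median of mean value, were Sh2d2a (r = 0.97), the troponin gene Tnni1 (0.97), Dnmbp (0.95) and Nolc1 (0.95), with 0.96 to 0.97 over 5 arrays. Nolc1 encodes a nucleolar protein and is on the list of MYC-induced targets. It read 8.24, 8.80 and 8.76 in HDAC7 deficient and 8.73, 8.85 and 9.04 in wild type.

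The remaining genes of the wider network did not pass the test either. All 6 were measured, 5 were higher and 1 lower, with a median change of 0.58, or 0.25 without wild-type replicate 3. Mlxip, which encodes the glucose-responsive factor MondoA, was apart in the groups, at 9.46, 9.35 and 8.98 against 8.51, 8.86 and 6.55 in wild type. Its change was 1.29 ± 0.62 with a limma adjusted p of 0.377, and 0.58 without wild-type replicate 3, where its unadjusted p was 0.0271 and 5.19% of genes had p under 0.05 on that side. Mycl, the L-MYC gene, differed by 0.87 and Mlxipl, which encodes the carbohydrate response factor ChREBP, by -0.38.

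MYC cofactors and regulators of its turnover had 13 of 16 genes measured, 10 higher and 3 lower, with a median of 0.57. Without wild-type replicate 3 they split into 6 higher and 7 lower, with a median of -0.04. Pim1, a kinase that stabilises MYC, kept its size, with 0.58 ± 0.29 and 0.60. It read 7.09, 7.70 and 7.88 against 6.89, 7.03 and 7.01 in wild type, with the groups apart and a limma adjusted p of 0.378. The ubiquitin ligase genes Huwe1 and Fbxw7, whose products act on MYC, differed by 0.81 and 0.86, or by 0.46 and 0.24 without that array.

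SIN3 corepressor subunits, through which MXD proteins and MNT repress, were all higher with 6 arrays, 12 of the 12 measured of 13, with a median of 0.56. The brightest genes also had a median of 0.56, and 89.6% of them were higher. Without wild-type replicate 3 the median was 0.05, with 7 higher and 5 lower. Arid4a, a SIN3-associated subunit gene, differed by 0.74 ± 0.27 with all arrays and 0.76 without that array, at 8.13, 8.41 and 8.34 against 7.32, 7.75 and 7.60. It was the 1 subunit with an unadjusted p under 0.05 (0.0292, limma adjusted p = 0.377), where 3.52% of all genes were higher at that level. Without wild-type replicate 3, Arid4a, Sap30 and Ing2 were at that level, 3 of 12 subunits against 5.19% of all genes, and Ing2 was named after its values were seen. Sap30 differed by 1.07 and Arid4b by 0.61, or by 0.50 and 0.26 without wild-type replicate 3.

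Genes that MYC is known to induce, mostly of ribosome production, nucleotide synthesis and glycolysis, differed in direction with and without wild-type replicate 3. Of 33 listed, 30 were measured. With 6 arrays 23 were higher and 7 lower, with a median of 0.19, below the 0.56 of the brightest genes. That median was 0.51 without wild-type replicate 2, 0.31 without HDAC7-deficient replicate 1 or replicate 3, and 0.0079 after quantile normalization. Without that array 7 were higher and 23 lower, with a median of -0.22, against a median of 0.06 for the brightest genes and -0.05 for all genes. In that setting 8 of the 11 pro-B markers were also lower, with a median of -0.21, and the 5 natural killer cell markers had a median of -0.11. The part of cell makeup in the values of the targets was not tested. The list mean was 9.01, 9.11 and 8.999 on HDAC7-deficient arrays and 9.09, 9.27 and 7.85 on wild-type arrays. The list mean of HDAC7-deficient replicate 2 lay within the range of wild-type replicates 1 and 2, and the others lay below both.

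**Figure D3:**
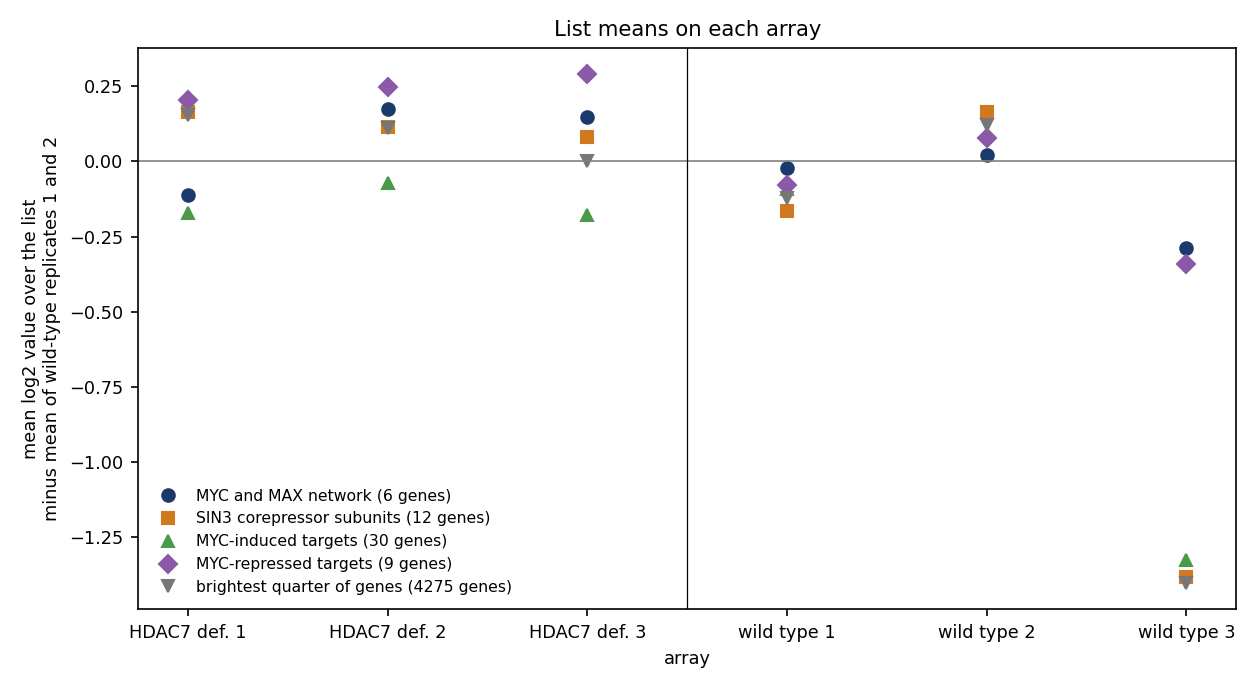
Mean log2 value over the genes of each list on each array (vertical axis), set to 0 at the mean of wild-type replicates 1 and 2. Wild-type replicate 3 lies far below for the brightest genes, the MYC-induced targets and the SIN3 subunits, and the MYC-induced targets are the 1 plotted list that lies below 0 on all 3 HDAC7-deficient arrays.

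With 6 arrays, 3 induced targets were apart on the lower side and 1 on the higher, against 16.8% and 9.45% of all genes. Without wild-type replicate 3, 15 of the 30 induced targets (50%) had HDAC7-deficient arrays all below wild-type replicates 1 and 2, against 19.0% of all genes and 7.27% of the brightest. The wild-type arrays of that setting were all Xist-low, so label and Xist division cannot be fully told apart in it. At an unadjusted p under 0.05 there, 7 were lower (23.3%, against 8.84% of all genes) and 1 higher, and none passed when adjusted over all genes. The 7 were Ldha, Nme1, Tert, Npm1, Rrs1, Cdk4 and Ddx21, with changes of -0.19 to -0.45, and the higher one was the transferrin receptor gene Tfrc at 0.33. Apart from Tert and Rrs1 they were singled out after their values were seen. Tert is dim, at percentile 25.0 of mean value. The lactate dehydrogenase gene Ldha read 11.08, 11.08 and 10.99 in HDAC7 deficient and 11.25, 11.42 and 10.40 in wild type. Its change was -0.29 ± 0.08 without wild-type replicate 3 (limma adjusted p = 0.243) and 0.02 with it. Cdk4, a G1 cyclin-dependent kinase gene, read 10.38, 10.12 and 10.05 against 10.43, 10.67 and 7.14, so that 1 array turned its change to 0.77 with all 6.

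The Cdk4 and Rrs1 probe sets are of a class whose probes can read near-identical sequences of other genes, so their values are uncertain to that extent. Rrs1 and Tert kept their direction in both settings, as did the other targets lower with 6 arrays, Npm1, Nop56, Nolc1, Srm and Pa2g4. Rrs1, a ribosome biogenesis factor gene, read 9.79, 9.40 and 9.56 in HDAC7 deficient against 10.11, 9.96 and 10.40 in wild type, a change of -0.57 ± 0.30 (limma adjusted p = 0.381). Tert, the telomerase reverse transcriptase gene, read 5.22, 5.04 and 5.13 against 5.68, 5.47 and 5.38, a change of -0.38 ± 0.16 (limma adjusted p = 0.377). It is dim, at percentile 25.0 of mean value, so its values may lie at background. Ncl, which encodes the nucleolar protein nucleolin, ran the other way at 8.42, 8.89 and 9.16 against 7.98, 8.43 and 7.49, a change of 0.86 ± 0.37, or 0.62 without wild-type replicate 3. Within the Xist-low arrays, 25 of the 30 induced targets were lower on HDAC7-deficient replicate 1, with a median of -0.14, against 54.1% of all genes lower. Within the Xist-high arrays 6 were lower, and the median was 0.92.

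**Figure D4:**
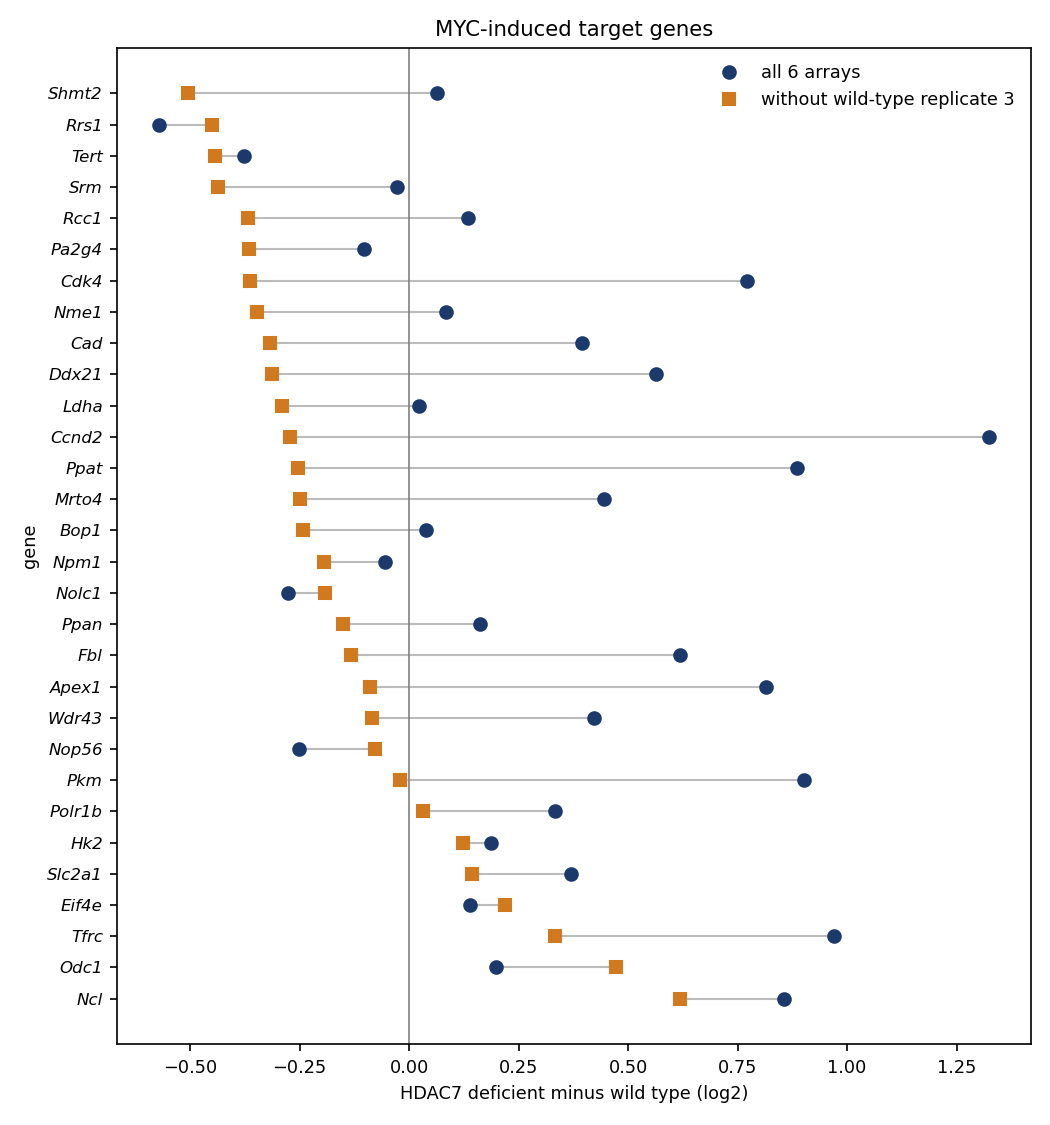
Change of each of the 30 measured MYC-induced target genes (horizontal axis, HDAC7 deficient minus wild type, log2) with all 6 arrays (circles) and without wild-type replicate 3 (squares). A grey line joins the values of 1 gene, and 23 of the 30 squares lie below 0 against 7 of the 30 circles.

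Of the induced targets, 27 had promoter entries and 8 of these held the E-box (29.6%, beside 8.09% of all genes, with no test of the difference). The upstream 100 bases of Cdk4, Ldha and Nme1 are shown because these genes are textbook MYC targets among the 7 lower ones and each holds CACGTG, given in capitals, 5′ to 3′, from RefSeq promoters of build GRCm38.p6. Of the other lower genes, Tert and Ddx21 had windows without CACGTG, and Npm1 and Rrs1 had no promoter entry. Apex1, Eif4e and Wdr43 held CACGTG and were not among the 7. Nme1 encodes a nucleoside diphosphate kinase, and of its start sites the upstream one is shown. For Ldha the upstream start site is also the one shown, and the window of its other start site lacked CACGTG. The letters describe the sequence and do not show binding.
Cdk4, chr10:127063435-127063534, plus strand: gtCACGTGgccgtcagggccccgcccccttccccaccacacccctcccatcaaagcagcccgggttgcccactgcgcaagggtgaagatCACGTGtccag
Ldha, chr7:46845704-46845803, plus strand: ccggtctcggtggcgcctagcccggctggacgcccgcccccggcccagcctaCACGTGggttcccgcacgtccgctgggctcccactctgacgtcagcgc
Nme1, chr11:93968273-93968372, minus strand: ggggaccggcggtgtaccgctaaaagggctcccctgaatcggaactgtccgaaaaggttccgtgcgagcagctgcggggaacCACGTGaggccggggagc

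Genes that MYC is known to repress had all 9 measured, 6 higher and 3 lower, with a median of 0.12, or 0.06 without wild-type replicate 3. Gadd45a, a DNA damage response gene, read 8.96, 9.46 and 9.58 in HDAC7 deficient and 7.41, 8.46 and 6.95 in wild type, a change of 1.72 ± 0.45, or 1.40 without that array (limma adjusted p = 0.377 and 0.202). Cdkn1a, which encodes the cell cycle inhibitor p21, read 8.56, 8.49 and 8.67 against 7.73, 8.38 and 6.48, a change of 1.04 ± 0.49, or 0.52 without it. Both had groups apart in each setting. Of the 9 genes, 2 were apart on the higher side with all arrays, against 9.45% of all genes. Without wild-type replicate 3 it was 3 of the 9, against 11.8% of all genes. Pdgfrb differed by -0.31, and Cdkn1b, which encodes p27, by 0.12, or 0.47 without wild-type replicate 3, where its unadjusted limma p was 0.0341. In that setting 2 of the 9 genes were higher at an unadjusted p under 0.05, against 5.19% of all genes. Cdkn1b was named after its values were seen.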

How the data were processed

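RNA of sorted pro-B cells was hybridised to Affymetrix perfect-match mouse arrays. The authors deposited 1 log2 value per probe set and array, with the log2 scale read here from the range of the values and the normalization not given in the sources used here. Of 45141 probe sets, 104 were controls. Symbols came from the platform annotation, updated by Entrez number through a RefSeq table of GRCm38.p6 (28689 of 28898 probe sets with 1 symbol). All genes were fitted with limma 3.58.1 in R 4.3.3 (intensity trend, two-sided, Benjamini-Hochberg over 17097 genes, or over 45037 probe sets where stated, threshold 0.05). The fit was tested on simulated data. The replicates are labelled biological, and precision is limited by their number: 3 arrays against 3 allow no exact permutation p under 0.1. Members and lists were chosen with earlier results of these data known. Named genes were the members, up to 3 genes per list by smallest p, and for Myc the 4 most correlated genes; Max could not be used. Alternatives left out each array, used the replicate number or the Xist division as a block, or changed normalization, filter, variance model or probe set choice. Plots and promoter searches used Python 3.11.15 with matplotlib 3.10.9.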

Additional observations from a re-analysis of the deposited data

Results flagged for a closer look

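The change of Mxd1 was 1.97 on the Xist-high side and 0.13 on the Xist-low side. The interaction had a limma adjusted p of 0.00184, a level that 27.3% of genes passed, but both arms of 1 array (wild-type replicate 3 and HDAC7-deficient replicate 1) enter it, so it is no support for a difference between the divisions. Mxi1 gave 0.14 on the Xist-high side and -0.047 on the Xist-low side, and the arrays of each division all pointed opposite ways. Its interaction did not pass (limma adjusted p = 0.740). On the Xist-high side wild type is represented by replicate 3 alone, so its quality and the division cannot be told apart.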

How the results depend on the processing

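Over 15 alternatives, the changes of Myc and Mycn stayed negative and those of Mxd1 and Mxd4 positive, with limma adjusted p-values of 0.172 to 0.830, 0.160 to 0.885, 0.121 to 0.811 and 0.0957 to 0.899. Their sizes ran from -0.94 to -0.14, -0.79 to -0.09, 0.13 to 1.20 and 0.09 to 1.03. Mxi1 turned to -0.48 with quantile normalization and -0.047 when the Xist division was blocked and wild-type replicate 3 left out, and spanned -0.012 to 0.069 with single arrays left out. Mnt turned to -0.44 with quantile normalization, -0.061 with the Xist block, -0.010 with that block and wild-type replicate 3 left out and -0.074 with the mean over probe sets, and spanned -0.0060 to 0.25 with single arrays left out. After quantile normalization Myc was at -0.89, Mycn at -0.79 and Mxd1 at 0.56. The median of MYC-induced targets was 0.0079 after quantile normalization, 0.33 after median centring, 0.39 with the Xist block and -0.14 with that block and wild-type replicate 3 left out, and spanned -0.22 to 0.51 with single arrays left out. The median of MYC cofactors turned to -0.043 without wild-type replicate 3 and spanned -0.043 to 0.95 with single arrays left out, and that of other network genes to -0.031 with the Xist block and that array left out. Members with an unadjusted p under 0.05 numbered 1, not 0, with the Xist block (Mxd4), with that block and without wild-type replicate 3 (Myc), with no intensity trend and with the mean over probe sets, and 0 to 1 with single arrays left out. Members with groups apart numbered 2 with median centring and with the mean over probe sets, and 1 to 2 with single arrays left out. The share of all genes apart is not given for most of these settings, so these counts are no result about the members. Of 17097 genes, those at an unadjusted p under 0.05 numbered 2165 with all arrays, 3515 with the replicate block and 7288 with the Xist block. They numbered 626 to 5801 with single arrays left out, 1919 with no intensity trend and 2487 with the mean over probe sets. With the Xist block and wild-type replicate 3 left out they numbered 2371, where HDAC7-deficient replicate 1 alone faces wild-type replicates 1 and 2. Genes past the adjusted threshold numbered 0 with all arrays, 1 with the replicate block and 4 with the Xist block and wild-type replicate 3 left out, none of them a member. Same-numbered arrays had correlations of deviations of 0.0964, 0.208 and 0.476, 3 of 6 arrays matched their own number best, and the labels give no pairing; the replicate block changed no member's call. The causes were not tested. Arrays carry no detection calls, so values of dim probe sets may lie at background.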
